A study of Mus musculus with 3 samples.

Results

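Deep gene-body peaks are the places inside protein-coding genes, far from the starts of protein-coding transcripts, where Setd1a was found in cultured neural progenitors. Of the 6969 peaks in the deposited list, 6911 lay on the autosomes, and 554 of these met the rule. The nearer edge of such a peak was over 3000 bp from the transcription start site (TSS) of every GENCODE M21 transcript and over 20 kb from the nearest protein-coding transcript TSS, and the peak overlapped the body of a protein-coding gene. They made up 7.95% of the list (95% Wilson interval 7.34 to 8.61%) and 27.1% (25.2 to 29.0%) of the 2047 autosomal peaks outside the promoter window of 3000 bp. The other autosomal peaks were 4864 in the promoter window, 403 in gene bodies 3 to 20 kb from a TSS and 1090 between genes. Peaks just inside the 20 kb limit lay in Tmco4 (20097 bp), 2310022B05Rik (20187 bp) and Fmn2 (20217 bp), and those just outside in Shisa9 (19697 bp), Vwf (19653 bp) and Dnajb12 (19649 bp). At the 3000 bp limit, the nearest peaks inside lay in Upb1 and Gucd1 (3002 bp), Cerkl (3022 bp) and Sae1 (3087 bp), and the nearest outside in Tmc1 (2834 bp), Tle3 (2787 bp) and Anks1 (2774 bp). A further 86 peaks were over 20 kb from a coding TSS in a gene body but lay within 3000 bp of another TSS and were left out.

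The cells were adult neural stem cells (NSCs) taken from the dentate gyrus of Hopx-CreERT2::Setd1afl/fl::H2B-GFP mice of 7 to 8 weeks, labelled as neural progenitor cells (NPCs) of WT genotype, so that the cells carried the floxed Setd1a alleles. They were grown as cultures and moved from medium with FGF2 and EGF to quiescence medium with BMP4 and FGF2 and no EGF, and were collected on day 5. The study's culture scheme, which covers the day 5 cultures of this assay, adds lentivirus for GFP or for Cre-GFP on day 2, and its RNA-seq text calls the cells with GFP WT. CUT & RUN, in which a nuclease tethered to an antibody cuts out the DNA next to a bound protein, was run in 2 independent cultures with a Setd1a antibody (Abcam, Ab70378) and 1 further library was made with rabbit IgG. The list holds positions of peaks called in both Setd1a replicates, with no heights, no values per library and no IgG column, so the depth is unknown, no spread between replicates could be given, and all intervals below describe counting error alone. Among markers of the cell type, 9 of 15 neural stem cell genes and 1 of 13 neuronal genes on the autosomes had a peak within 3000 bp of a TSS, against 24.1% of all 20807 autosomal protein-coding genes.

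Setd1a is a histone methyltransferase that places methyl groups on lysine 4 of histone H3, and it is best known from CpG-rich promoters of active genes. Sites of transcription factor binding within introns are common in neural cells, where many act as enhancers of the gene that holds them or of a neighbour. NFI proteins, bHLH factors and Sox factors are among the regulators known to bind such distal elements in neural stem cells.

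For a first display, peaks were picked by width and not by the motifs they hold. The central 200 bp of 2 of the 3 widest peaks are shown on the plus strand of mm10 (GRCm38), as read from the RefSeq genome. They lay at chr11:88582925-88583124 in Msi2, an RNA-binding protein gene of stem and progenitor cells, and at chr12:111353421-111353620 in Cdc42bpb, a kinase that acts with the small GTPase Cdc42. Capitals mark every match to 1 of the 18 motifs searched.
Msi2: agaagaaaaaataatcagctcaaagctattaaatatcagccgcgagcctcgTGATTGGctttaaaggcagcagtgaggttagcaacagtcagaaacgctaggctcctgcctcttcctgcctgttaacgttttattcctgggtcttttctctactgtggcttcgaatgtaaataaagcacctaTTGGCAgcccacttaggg
Cdc42bpb: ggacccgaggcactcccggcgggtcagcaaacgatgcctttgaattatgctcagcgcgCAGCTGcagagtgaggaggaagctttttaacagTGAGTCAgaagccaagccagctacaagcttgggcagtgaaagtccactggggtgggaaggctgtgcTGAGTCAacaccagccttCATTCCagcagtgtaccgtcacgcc
The matches were an NF-Y and an NFI motif in Msi2, and an E-box of the form CAGCTG, 2 AP-1 motifs and a TEAD motif in Cdc42bpb. Neither window touched an exon of a protein-coding transcript, and they held 6 and 8 CpG dinucleotides.

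From the 4 members with the highest ratio of observed to expected CpG, 3 are shown in the same way as the contrast, with each CpG in capitals. They lay at chr4:143162068-143162267 in Prdm2, a PR-domain zinc finger protein, at chr13:44869693-44869892 in Jarid2, a subunit of Polycomb repressive complex 2, and at chr5:146261063-146261262 in Cdk8, the kinase of the Mediator complex.
Prdm2: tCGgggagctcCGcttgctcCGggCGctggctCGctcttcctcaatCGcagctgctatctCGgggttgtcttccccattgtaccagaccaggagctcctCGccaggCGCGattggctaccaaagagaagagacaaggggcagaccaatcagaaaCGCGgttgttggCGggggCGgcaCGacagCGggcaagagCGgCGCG
Jarid2: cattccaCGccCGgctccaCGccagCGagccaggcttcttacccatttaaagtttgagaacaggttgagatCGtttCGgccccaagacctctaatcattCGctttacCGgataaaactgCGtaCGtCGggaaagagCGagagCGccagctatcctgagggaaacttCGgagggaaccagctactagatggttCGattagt
Cdk8: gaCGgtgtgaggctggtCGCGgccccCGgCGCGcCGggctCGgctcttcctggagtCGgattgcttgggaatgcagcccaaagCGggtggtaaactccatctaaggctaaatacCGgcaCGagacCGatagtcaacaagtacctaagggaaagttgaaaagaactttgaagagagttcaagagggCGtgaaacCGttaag
These windows held 19, 15 and 15 CpG dinucleotides. The Prdm2 window included 115 bases of coding exon, and the windows in Jarid2 and Cdk8 lay wholly in introns. The Prdm2 peak overlapped a RefSeq transcript start, though the nearest curated one was 25642 bp away. To the nearest GENCODE M21 start of any transcript it was 4071 bp from the Prdm2 peak and 3207 bp from the Cdk8 peak.

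Most deep gene-body peaks were narrow and lay in introns. Width ranged from 234 to 1452 bp (median 376 bp, quartiles 297 and 547 bp), and 14 of 554 (2.53%) were at least 1000 bp wide. Of the 554, 511 (92.2%, 89.7 to 94.2%) overlapped no exon of any transcript, 26 overlapped a coding exon and 17 another exon. Exons made up 4.27% of the bases that the rule allowed. That share counts bases, whereas a peak was counted on any overlap, so these values are not directly comparable. For 524 members the midpoint fell in an intron of the longest protein-coding transcript there, and this was the first intron in 102, the second in 100 and the last in 47. The introns themselves were long, at a median of 41987.5 bp (quartiles 11493 and 107724 bp). When the host gene was cut into 4 equal lengths from its 5′ end, these held 67, 154, 175 and 158 members. The rule itself keeps members out of the stretch next to the TSS, so the low number at the 5′ end is no finding.

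The widest member, 1452 bp, lay 105017 bp from the nearest coding TSS in Gse1, a coiled-coil protein gene. The next were 1416 bp in Msi2 at chr11:88582318-88583733, 1399 bp in Cdc42bpb at chr12:111352822-111354220, 1209 bp in Megf11 at chr9:64605687-64606895 and 1206 bp in Slc1a3 at chr15:8659245-8660450. Megf11 encodes a transmembrane protein with EGF-like domains that spaces retinal neurons, and Slc1a3 encodes the glutamate transporter GLAST of astrocytes and radial glia-like stem cells. All of the 5 were intronic, none met the limits for a CpG-rich sequence, and their distances to a coding TSS ran from 23399 bp in Cdc42bpb to 134368 bp in Msi2.

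Members became sparser with distance. The distance to the nearest coding TSS was 46366.5 bp at the median (quartiles 30672 and 81257 bp) and 528900 bp at most. Between 20 and 50 kb there were 302 members, or 1.57 per Mb of the gene body in that band (95% Poisson interval 1.40 to 1.76), and between 50 and 100 kb there were 151, or 1.16 per Mb (0.985 to 1.36). Between 100 and 200 kb the density was 0.599 per Mb (0.456 to 0.772, 59 members), and beyond 200 kb it was 0.516 per Mb (0.372 to 0.698, 42 members). Over the whole 501.7 Mb that the rule allowed, the density was 1.10 per Mb (1.01 to 1.20), against 1.53 (1.38 to 1.69) for gene bodies 3 to 20 kb from a TSS, 0.874 (0.823 to 0.927) between genes and 12.7 (12.3 to 13.0) in the promoter window. Because distance is what the rule used, these densities are given as a description.

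**Figure D1:**
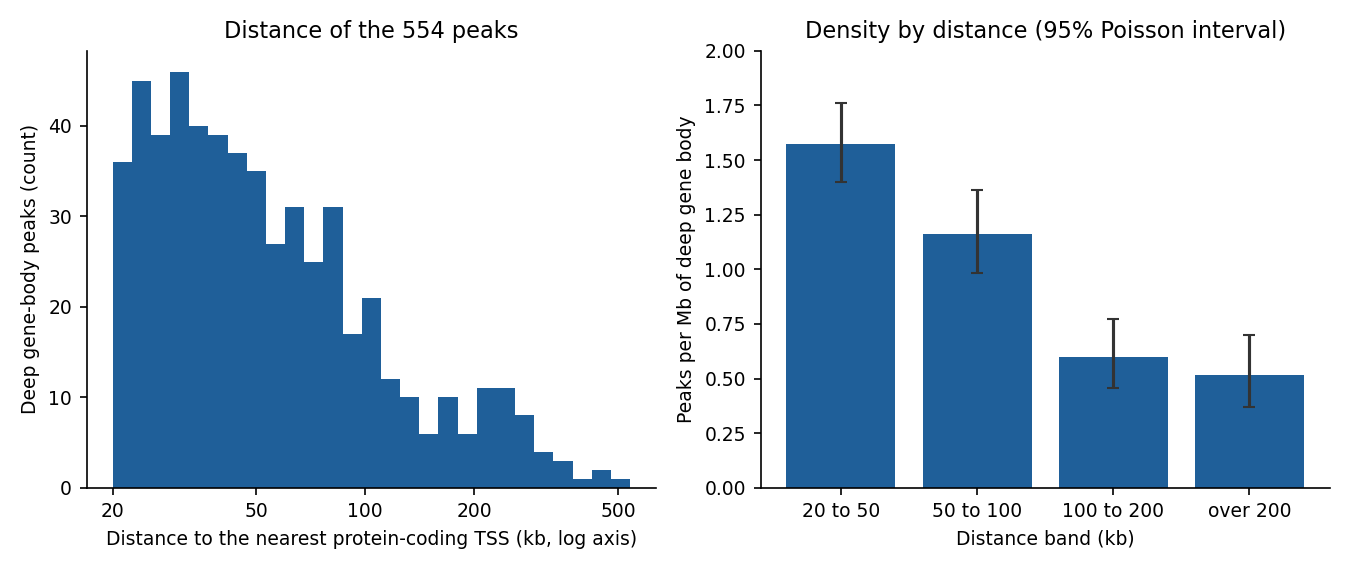
Left, histogram of the distance from the 554 deep gene-body peaks to the nearest protein-coding TSS (kb, log axis). Right, members per Mb of deep gene body in 4 distance bands with 95% Poisson intervals; the bars step down from 1.57 at 20 to 50 kb to 0.516 beyond 200 kb.

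The 5 members farthest from a coding TSS lay in Ptprt (528900 bp), Pcdh15 (463881 bp), Npas3 (444450 bp), Rad51b (383016 bp) and Plcb1 (356913 bp). Ptprt encodes a receptor tyrosine phosphatase, Pcdh15 a protocadherin, Npas3 a bHLH-PAS transcription factor, Rad51b a recombination protein and Plcb1 a phospholipase C. The Ptprt peak was 3257 bp from the start of a transcript that was not protein-coding, close to the limit. The Pcdh15 peak lay at 1.35% of its gene's length, 20672 bp from a GENCODE M21 start of any kind and 21539 bp from a RefSeq start. By contrast, the Npas3 peak was 381635 bp from any GENCODE M21 start and 134038 bp from a RefSeq start. Over all members the distance to a TSS of any GENCODE M21 transcript had a median of 23524 bp. For 418 of 554 members (75.5%, 71.7 to 78.9%) the nearest coding TSS belonged to the host gene, and for the others it belonged to a gene that did not hold the peak.

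The gene bodies were checked against a separate annotation, since a peak is deep only in relation to a gene model. Of the 554 members, 534 (96.4%, 94.5 to 97.7%) also lay in the body of a RefSeq protein-coding gene, and 526 in the RefSeq body of a gene with the host's symbol. A RefSeq transcript start of any kind, most of them predicted, lay within 3000 bp of 27 members, and a curated RefSeq start within 3000 bp of 4.

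The 554 members fell in 465 host genes. These were 6.57% of the 7082 eligible genes, that is, protein-coding genes with at least 1 bp of body that the rule allowed. A host held 1 member in 383 genes, 2 in 68 and 3 or more in 14, and 179 members shared their host with another. Gse1 led the hosts that RefSeq also describes, with 8 peaks spread over 190.8 kb of its 352.9 kb. These 8 peaks were 341 to 1452 bp wide, lay between 42.2 and 232.4 kb from the start of the gene, and 2 of them were 247 bp apart. Gse1 also had a peak in its promoter window, 332 bp from a TSS of its own.

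Itpkb, an inositol trisphosphate kinase, held 4 peaks of 396 to 589 bp across 56.2 kb and had no promoter peak, the nearest peak to a TSS of its own being 31232 bp away. Mad1l1, of the spindle checkpoint, also held 4, of 280 to 912 bp, spread over 231.7 kb, with a promoter peak that overlapped a TSS. Msi2 held 3 peaks, of which those of 1416 and 635 bp were 1207 bp apart, and Npas3 held 3 peaks over 394.4 kb with no promoter peak. Srgap1, a GTPase-activating protein of Slit and Robo signalling, held peaks of 365, 434 and 529 bp. Syn3, a synapsin of the synaptic vesicle, held peaks of 278, 728 and 636 bp, of which the first 2 also lay in Timp3, a metalloproteinase inhibitor gene nested in Syn3. The 3 members of Msi2 spanned 25.8 kb of a gene of 379.1 kb, whereas those of Mad1l1 ran through most of its 312.9 kb.

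Some hosts with many members came from unusually long gene models. Gm20388 (4434.9 kb) held 9 members, of which 8 were those of Gse1, and Gm37240 (1391.1 kb) held 3, and neither symbol was found among RefSeq protein-coding genes. Fgfr2, the FGF receptor, held 7 members in its GENCODE M21 body of 2960.9 kb but 0 in its RefSeq body of 104.4 kb, and 3 of the 7 were also in Chst15, Lhpp or Ctbp2. Gucd1 held 3 members in a GENCODE body of 166.9 kb and 0 in its RefSeq body of 11.2 kb. For these 4 genes the count of members describes the GENCODE body only.

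**Figure D2:**
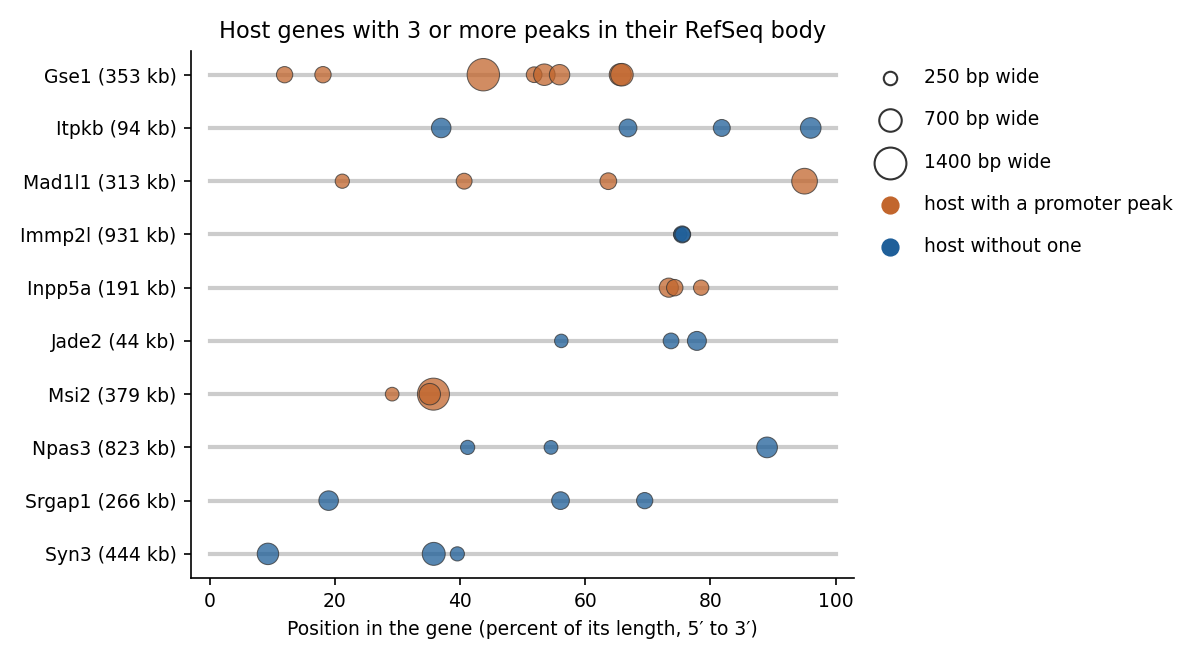
Each line is a host gene with 3 or more members whose members all lie in its RefSeq body (length in kb beside the name), drawn from its 5′ end at 0 to its 3′ end at 100 percent; circles are members, with area in proportion to width, coloured by whether the gene has a promoter peak. Inpp5a, Jade2 and Immp2l, outside the naming rule, complete the set; the 8 peaks of Gse1 lie between 12.0 and 65.8 percent of its length.

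Host genes were longer than other eligible genes in the amount of body the rule allowed, and long genes had more chances to hold a member. By quintiles of that length, 0.212, 1.91, 4.73, 7.49 and 18.5% of the genes were hosts. Per Mb of allowed body the order was different: the density was 0.738 (0.152 to 2.16) in the shortest quintile, 1.84 (1.22 to 2.66) and 2.21 (1.75 to 2.76) in the next ones, 1.57 (1.31 to 1.87) in the fourth and 0.918 (0.824 to 1.02) in the longest. The longest quintile thus held most hosts, 262 of 465, at a lower density than the fourth.

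The share of genes with a promoter peak did not differ past the threshold between hosts and other eligible genes. A promoter peak, on which the rule does not rest, was present in 134 of 465 hosts (28.8%, 24.9 to 33.1%) and in 1825 of 6617 others (27.6%, 26.5 to 28.7%), an odds ratio of 1.06 (p = 0.556 by Fisher's exact test, two-sided). With the quintiles of allowed body as strata, the Mantel-Haenszel odds ratio was 1.19 (95% interval 0.962 to 1.48). In the longest quintile the shares were 77 of 262 (29.4%) and 253 of 1154 (21.9%), with an odds ratio of 1.48 and p = 0.012, which was 0.0600 after Benjamini-Hochberg adjustment over the 5 quintiles (Fisher's exact test). Of the members themselves, 174 (31.4%, 27.7 to 35.4%) lay in a gene with a promoter peak.

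Deep gene-body peaks were richer in GC than the deep gene body as a whole and far poorer in CpG than promoter peaks. In the central 300 bp the median GC content was 49.3% (95% interval 48.7 to 50%), and the ratio of observed to expected CpG was 0.202 (0.190 to 0.215). Promoter peaks had 63.7% GC and a ratio of 0.798. All 300-bp windows of the deep gene body had a median GC of 41.7% and a ratio of 0.158. A sequence was called CpG-rich with a GC content of at least 50% and a ratio of at least 0.6, which held for 9 of 554 members (1.62%, 0.857 to 3.06%), 72.5% of promoter peaks and 0.291% of the windows. Repeats filled a median of 7.00% of the central 300 bp, against 17.7% of the windows, and 224 members held no repeat base. The authors kept only uniquely mapped reads, whereas the windows were not limited to sequence where reads map uniquely. The part of this in the difference was not tested.

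Against the other distal peaks, 23 features were compared with each class, 46 tests in all, by Fisher's exact test on shares and on counts above the joint median. Compared with gene-body peaks 3 to 20 kb from a TSS, GC content was lower. Its median was 49.3% against 51.3%, and 240 of 554 members (43.3%) and 232 of 403 nearer peaks (57.6%) were above the joint median of 50.3%, an odds ratio of 0.563 (Fisher's exact test, adjusted p = 0.000698). The whole territories differed the same way, as all windows had a median GC of 41.7% in the deep and 43.7% in the nearer gene body. The part of this difference in the result was not tested, and the DNA next to the peaks was not measured. Compared with intergenic peaks, fewer members were CpG-rich, 9 of 554 (1.62%) against 51 of 1090 (4.68%, 3.58 to 6.10%), an odds ratio of 0.336 (Fisher's exact test, adjusted p = 0.0289). This call was lost in 4 of 8 alternative settings, with an adjusted p of up to 0.145. The share of CpG-rich windows was 0.291% in the deep gene body and 0.381% between genes. The other 44 tests did not pass, among them those of width, with medians of 376, 384 and 385 bp in the deep, nearer and intergenic peaks.

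**Figure D3:**
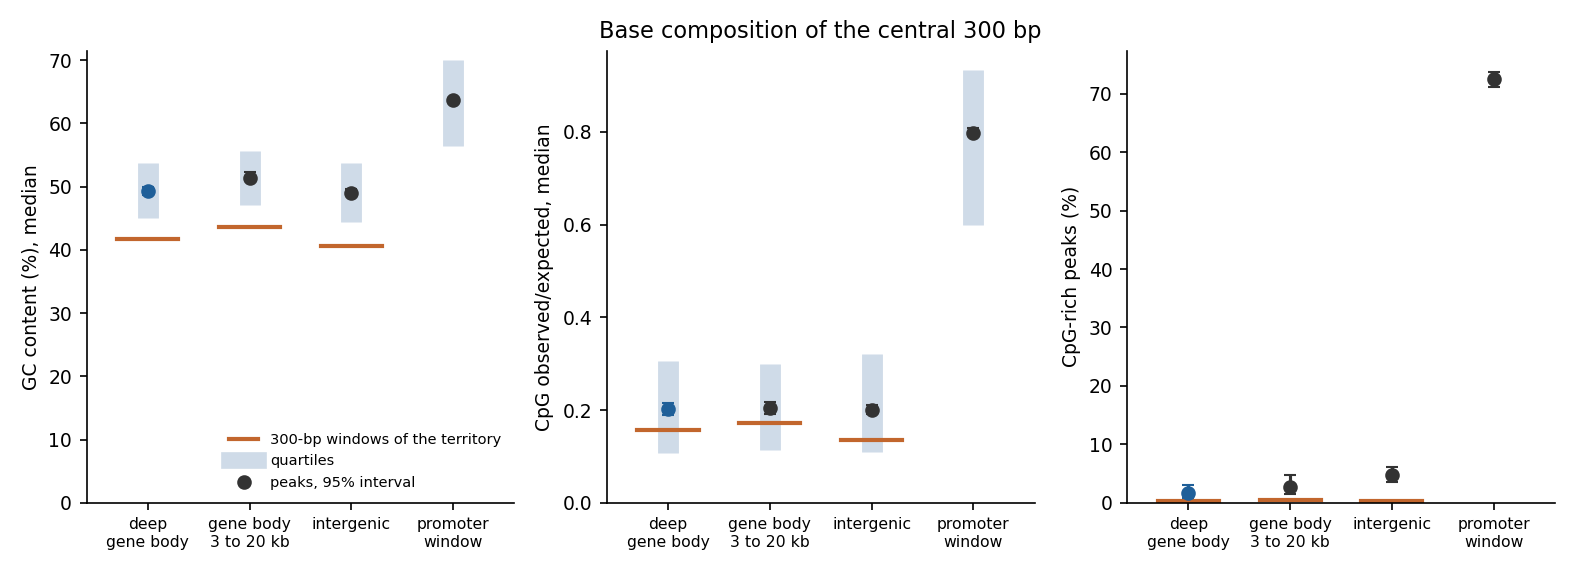
Median GC content (%), median CpG observed to expected ratio and share of CpG-rich sequences (%) in the central 300 bp of the 4 classes of autosomal peaks; points are peaks with 95% intervals, pale bars the quartiles, and orange lines all 300-bp windows of the same territory. Deep gene-body peaks sit at 49.3% GC, above their windows at 41.7% and below promoter peaks at 63.7%.

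The 9 CpG-rich members lay in Prdm2, Jarid2, Cdk8, Camk1d, Rere, Hmga2, Gphn, C87436 and the overlapping genes Filip1l and Cmss1. Camk1d encodes a calcium/calmodulin-dependent kinase. Their CpG ratios ran from 0.610 in Hmga2 to 1.07 in Prdm2. Of the 9, 2 lay within 3000 bp of a RefSeq transcript start, Prdm2 among them, against 25 of the other 545. The highest ratio of all members, in a peak of 568 bp at chr18:37217358-37217925 inside Gm37388, Gm37013 and Gm42416, came with a GC content of 37.3%, so it was not called CpG-rich.

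Motifs of known regulator families were counted in the central 300 bp on both strands. Those searched were TTGGCA (NFI), CAGCTG (E-box with a GC centre), CACGTG (E-box with a CG centre), CATCTG (E-box with a TC centre), ACAATG (SOX), TGANTCA (AP-1), TGACGTCA (CRE), TGTTTAC (FOX), GGAATG (TEAD), GTTGCCA (RFX), CCGGAAG (ETS), ATGGCGG (YY1), GCGCATGCG (NRF1), GGGCGG (Sp/KLF), CCAATCA (NF-Y), GGCGCC (SMAD GC element), the CTCF core, and the NFI palindrome, in which TTGGC is followed after 5 bases by GCCAA. The NFI and RFX motifs share the letters TGGCA. A match describes the letters and is not a bound site.

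The NFI motif TTGGCA was the most frequent, in 168 of 554 members (30.3%, 26.6 to 34.3%), against 14.7% of all windows of the deep gene body, while the NFI palindrome was found in 2 (0.361%, 0.0991 to 1.31%), against 0.0167% of windows. The E-box CAGCTG was found in 131 (23.6%, 20.3 to 27.4%) against 11.1% of windows, and AP-1 in 70 (12.6%, 10.1 to 15.7%) against 9.05%. The E-box CATCTG, in 134 members (24.2%) and 21.9% of windows, and SOX, in 99 (17.9%) and 18.2%, had window shares inside the members' intervals. Base composition moved with these shares. Among the 326 members with 45 to 55% GC, NFI was found in 28.5% (23.9 to 33.7%) and CAGCTG in 24.2% (19.9 to 29.2%), and among windows of the same GC content in 15.7% and 17.1%. In the same range AP-1 was found in 11.3% of members (8.35 to 15.3%) and 8.60% of windows, and CATCTG in 22.1% (17.9 to 26.9%) and 25.7%, so that both window shares lay inside the members' intervals. SOX was found there in 18.4% (14.57 to 22.97%) and 14.42%, just below the interval. Motifs of CpG-rich promoters were rarer in members than in promoter peaks. Sp/KLF was in 7.22%, ETS in 2.53% and YY1 in 1.44% of members, and in 60.01%, 13.4% and 9.40% of promoter peaks. In windows of the deep gene body the shares were 2.46%, 0.794% and 0.629%, below the members' intervals (lower limits 5.35%, 1.51% and 0.733%). At 45 to 55% GC, ETS stayed above windows, at 2.76% of members (1.46 to 5.16%) against 1.28%. Window shares of Sp/KLF (4.46%) and YY1 (1.12%) then lay inside the members' intervals (3.28 to 8.19% and 0.657 to 3.54%). NRF1 was found in 0 of 554 members, which allows a share of up to 0.542% by the limit of 3 counts (Wilson limit 0.689%), and in 3.06% of promoter peaks. None of the 18 motifs was found in 83 members.

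No motif share passed the test against either other distal class. NFI was in 27.3% of gene-body peaks 3 to 20 kb from a TSS and in 24.9% of intergenic peaks, and the difference of 5.46 percentage points from the latter did not pass (Fisher's exact test, p = 0.0214, adjusted p = 0.197). TEAD was in 15.2% of members and 20.6% of intergenic peaks (p = 0.0075, adjusted p = 0.0863, Fisher's exact test). Of the 18 motifs, 0 passed against either class by Fisher's exact test, and at an unadjusted p under 0.05 the counts were 0 against the nearer gene-body peaks and 2 against the intergenic peaks.

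**Figure D4:**
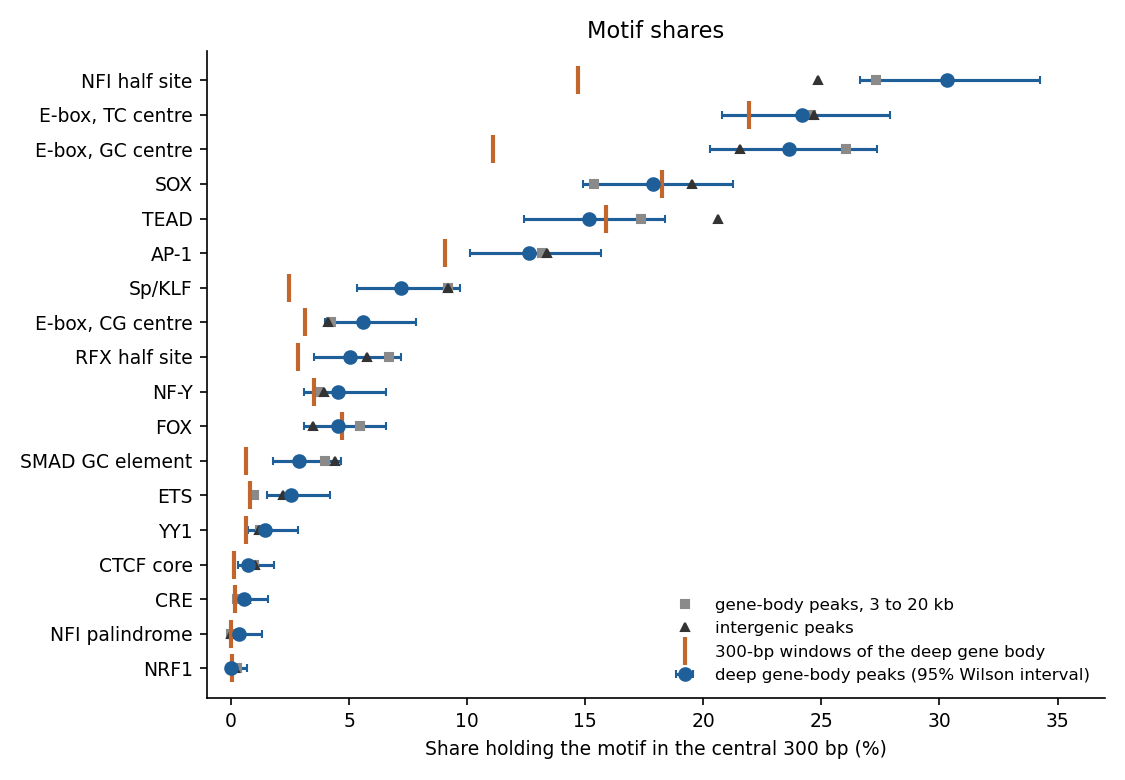
Share of sequences that hold each of 18 motifs in the central 300 bp (%): blue points are the 554 deep gene-body peaks with 95% Wilson intervals, grey squares gene-body peaks 3 to 20 kb from a TSS, black triangles intergenic peaks and orange bars all 300-bp windows of the deep gene body. The NFI motif stands at 30.3% in members and 14.7% in windows.

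Motif shares were also set against distance and width among the members. NFI was in 30.1%, 29.1%, 39.0% and 23.8% of members in the 4 distance bands from 20 kb outward. CAGCTG went from 26.5% (21.8 to 31.7%) at 20 to 50 kb to 11.9% (5.19 to 25%) beyond 200 kb, and median GC content from 50.2% to 45.7%. By quartile of width from the narrowest, 234 to 297 bp, to the widest, 547 to 1452 bp, CAGCTG was in 19.3% (13.6 to 26.6%), 24.3% (17.9 to 32.0%), 18.5% (12.9 to 25.9%) and 32.4% (25.2 to 40.5%), with no steady order. These shares were not tested against each other.

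Host genes were then described by lists of genes of the tissue and treatment. In every list given below except that of Notch genes the share of eligible genes that held a member was above the 6.57% of all eligible genes. However, the median allowed body of every list given below was also above the 24.4 kb of all eligible genes. Both the share and the density per Mb of allowed body are therefore given, beside a density of 1.14 per Mb (1.05 to 1.23) summed over all eligible genes, in which a member in overlapping genes counts for each.

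Chromatin regulators and BMP and TGF-beta genes had the highest densities of the lists with over 30 eligible genes. Of 104 eligible chromatin regulators, 14 (13.5%, 8.19 to 21.3%) were hosts, at 2.33 members per Mb (1.33 to 3.79) and a median allowed body of 31.6 kb. With a limit of 50 kb in place of 20 kb, 2 of 45 (4.44%) were hosts, below the 7.76% of all genes eligible then. They included the deacetylase Hdac4 with 2 members of up to 883 bp that together spanned 1.77 kb, Prdm2 with 1 of 729 bp and the H3K9 demethylase Kdm4b with 1 of 561 bp. Of 32 BMP and TGF-beta genes, 6 (18.8%, 8.89 to 35.3%) were hosts, at 2.91 per Mb (1.17 to 5.99). These were Alk, a receptor tyrosine kinase that is not itself a BMP receptor, with 2 members of up to 281 bp, the corepressor Ski with a member of 660 bp, the BMP receptor Bmpr1b with 344 bp, the latent TGF-beta binding proteins Ltbp2 (296 bp) and Ltbp1 (272 bp), and the ligand Tgfb2 (243 bp). Only 2 of the 6, Ski and Bmpr1b, had a member of at least 300 bp, which leaves 6.25% of the list. Among all eligible genes the share with such a member was 5.01%. In genes of the third quintile of allowed body, which includes the 31.6 kb of the median chromatin regulator, the density was 2.21 per Mb. Yet 23 of the 104 chromatin regulators were in the longest quintile, where the density was 0.918 (0.824 to 1.02). The median BMP and TGF-beta gene had 39.7 kb, in the fourth quintile, where the density was 1.57 (1.31 to 1.87). Of the 32 genes, 6 were in the longest quintile. The quintile of the median gene is thus not matched in length to the summed density of either list. No list was tested.

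Of 57 eligible genes of FGF, EGF and other receptor tyrosine kinase signalling, 9 (15.8%) were hosts, and 8 (14.0%) without Fgfr2, which has none in its RefSeq body. The density was 1.59 per Mb (0.907 to 2.58), but 7 of the 16 members counted and 1507 kb of the 10.1 Mb of allowed body were those of Fgfr2. By these values the rest of the list, without Fgfr2, lies below the 1.14 of all eligible genes. The place of the list above 1.14 therefore rests on that GENCODE body. Beside Fgfr2 the hosts included protein kinase C alpha (Prkca) with 2 members of up to 965 bp, the neuronal MAP kinase Mapk10 with 926 bp and the FGF receptor adaptor Frs2 with 767 bp. In the Wnt list 5 of 35 (14.3%, 6.26 to 29.4%) were hosts, against 6.57% of all eligible genes, at 2.03 per Mb (0.658 to 4.73). With a limit of 50 kb the share was 4.76%, against 7.76% of all genes eligible then. With peaks of at least 300 bp it was 5.71%, against 5.01% of all eligible genes. The Wnt hosts included the stem cell receptors Lgr5 (399 bp) and Lgr6 (326 bp), the polarity gene Prickle2 (270 bp) and the ligand Wnt7b (243 bp). In the Notch list only Notch2, with a member of 299 bp, was a host, 1 of 16 (6.25%), against the 6.57% of all eligible genes, at 0.882 per Mb (0.0223 to 4.91). Lgr5, Wnt7b and Notch2 also had promoter peaks.

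Of 61 eligible transcription factors of neural stem cells and glia, 11 (18.03%, 10.4 to 29.5%) were hosts, at 1.04 members per Mb (0.568 to 1.74), against the 1.14 of all eligible genes. Npas3 had 3 members and the forkhead gene Foxn3 had 2, and the widest were 1157 bp in Rfx3, a regulator of cilia, and 1018 bp in Sox6. Of 47 eligible RNA-binding and splicing regulators, 6 (12.8%) were hosts, at 1.39 per Mb (0.634 to 2.63), with Msi2 first, then Celf4 with 2 members, Zcchc24 with 587 bp and Rbfox1 with 327 bp. Of 32 astrocyte and radial glia genes, 4 (12.5%, 4.97 to 28.1%) were hosts, at 0.856 per Mb (0.278 to 2.00), below the 1.14 of all eligible genes though the interval includes it. These were the growth factor receptor antagonist Lrig1 with 2 members of up to 434 bp that spanned 1.20 kb, Slc1a3 with 1206 bp, the lipid phosphatase Plpp3 with 419 bp and the sulfotransferase Chst11 with 255 bp. Slc1a3 was 1 of the 2 neural stem cell markers that were long enough to be eligible, and Syt1, a synaptic vesicle protein, was the 1 host among 9 eligible neuronal markers.

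The synapse and ion channel list and the cell adhesion and axon guidance list had the highest shares of the lists with over 30 eligible genes. They also had the lowest densities. Of 104 eligible synapse and ion channel genes, 21 (20.2%, 13.6 to 28.9%) were hosts, and of 109 cell adhesion and axon guidance genes, 22 (20.2%, 13.7 to 28.7%). Their median allowed bodies were 301.1 and 330.0 kb, with 87 and 91 genes in the longest quintile, where 18.5% of all genes were hosts. Per Mb the densities were 0.665 (0.431 to 0.982) and 0.496 (0.321 to 0.733), against 0.918 (0.824 to 1.02) in the longest quintile. The synapse hosts included Syn3 with 3 members, the GABA receptor subunit Gabrg3 and Camk1d with 2 each, and the scaffold Dlgap2 with 1182 bp. The adhesion hosts included Kirrel3 (626 bp), Opcml (500 bp) and the integrin Itgb5 (427 bp) with 2 each, and Megf11. Promoter peaks were present in 7 of 109 synapse and ion channel genes and in 25 of 114 adhesion genes, against 24.1% of all protein-coding genes.

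**Figure D5:**
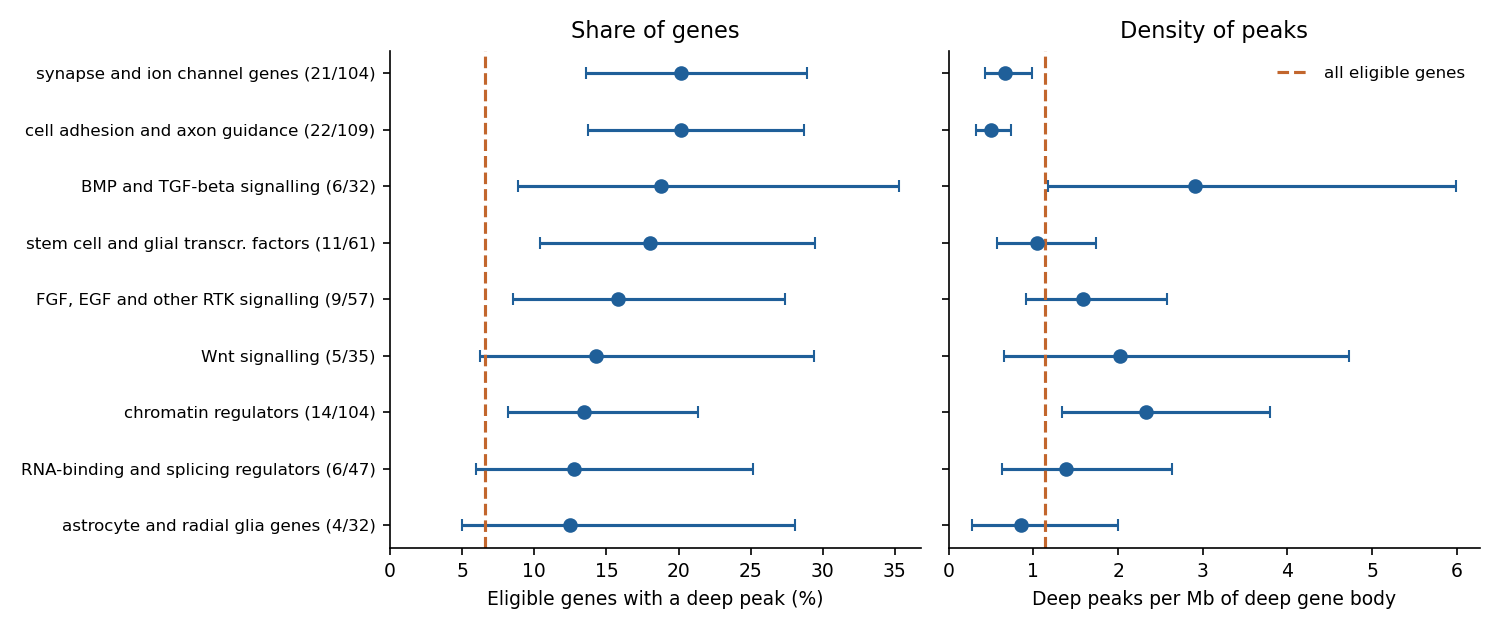
Left, share of eligible genes that held a deep gene-body peak (%, 95% Wilson interval) and right, members per Mb of allowed body (95% Poisson interval), for lists with over 30 eligible genes (the Notch list and both marker lists are left out); counts of hosts and eligible genes stand beside the names and dashed lines mark all eligible genes (6.57% and 1.14 per Mb). Synapse and adhesion genes are highest on the left at 20.2% and lowest on the right. The receptor tyrosine kinase values include Fgfr2, with 7 members in its GENCODE body and 0 in its RefSeq body.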

How the data were processed

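CUT & RUN libraries were 2 for Setd1a and 1 for IgG, all at day 5. Per the labels and the study's methods, the authors trimmed reads with Trimmomatic 0.32, mapped them uniquely to mm10 with Bowtie2 2.1.0, filtered by mapping quality with SAMtools 0.1.18, ran MACS2 2.2.8 with its default settings, and deposited 1 list of positions in bp that holds peaks shared by both replicates. How the intervals were joined and whether IgG served as the control are not given in the sources used here. Starts were read as 1-based.

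Peaks were placed on GENCODE M21, with RefSeq of GRCm38.p6 as a check and for sequence, whose chromosome lengths equal mm10. Analyses used Python 3.11.15, numpy 2.4.6, scipy 1.17.1, statsmodels 0.14.6 and matplotlib 3.10.9. Shares have 95% Wilson and densities exact Poisson intervals. Peaks, not samples, were the units of Fisher's exact tests, adjusted over 46 tests by Benjamini-Hochberg, with 0.05 as the threshold, and neighbouring peaks or peaks of 1 gene are not independent. The code was first tested on simulated data. The members and the gene lists were chosen with earlier results of these data known. Genes named are the hosts of the 5 widest, 5 farthest and 5 most CpG-dense members, the 10 hosts with most members, at most 4 hosts per list and those at the limits of the rule; Tgfb2 and Ltbp1, the CpG-rich set and genes named only for overlap were added after their values were seen. Alternatives covered annotation, distance, width, window, repeats and 1 peak per gene; those with RefSeq bodies and with a fixed GC range were chosen after seeing the data. Some items, among them 1 gene list and 1 sequence, are not reported here.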

Additional observations from a re-analysis of the deposited data

How the results depend on the processing

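The number of members was within 1.5 times of 554 under annotation with GENCODE basic (685) or RefSeq starts (629) and most other settings, but fell to 252 with a limit of 50 kb and to 324 when starts of all transcripts had to be 20 kb away. GC content stayed lower than in the nearer gene-body peaks in 8 of 8 alternatives, with adjusted p from 4.1e-05 to 0.0361. The lower CpG-rich share against intergenic peaks, in percentage points, lost its call by Fisher's exact test with peaks of at least 300 bp (-3.53, adjusted p = 0.0680), 1 peak per host gene (-2.72, adjusted p = 0.145), windows of 200 bp (-2.60, adjusted p = 0.123) and GENCODE basic (-2.41, adjusted p = 0.113). The number of features that passed against intergenic peaks was accordingly 0 with peaks of at least 300 bp and with 1 peak per host gene, and it was 2 with whole peaks and with GENCODE basic. The cause was not tested. The lower repeat share against intergenic peaks, which did not pass, passed in 3 of 8 alternatives and the lower TEAD share in 1 of 8. With the TSS at the 5′ end of the gene only, the odds ratio for promoter peaks at hosts was 0.965 (Fisher's exact test, p = 0.781).

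Differences that did not pass changed sign or fell to 0 in some settings. Against intergenic peaks, GC content differed by -0.667 (50 kb), 0 (1 peak per host gene) and -0.25 (200 bp), the CpG ratio by -0.00824 (50 kb), -0.00604 (200 bp), -0.00519 (500 bp), -0.00405 (whole peak) and -0.00218 (few repeats), CAGCTG by -1.32 percentage points (50 kb) and width by 6 bp (1 peak per host gene). Against nearer gene-body peaks, width differed by 0.5 bp and the CpG ratio by 0.00543 (at least 300 bp), the CpG ratio by 0.00322 (1 peak per host gene) and TEAD by 2.104 percentage points (500 bp).

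With the 50 kb limit the host share was 7.76% of all eligible genes, 0% of Notch, 4.76% of Wnt, 4.44% of chromatin, 4.55% of astrocyte, 13.4% of synapse genes and 0% of neural stem cell markers. With peaks of at least 300 bp it was 5.01% of all, 6.25% of BMP and TGF-beta, 0% of Notch, 5.71% of Wnt, 11.5% of synapse genes and 0% of neuronal markers. In sequences of 45 to 55% GC, the excess of CAGCTG over windows was 7.09 percentage points in place of 12.6. No paired analysis was possible because both replicates were deposited as a single combined set of positions, and so no replicate could be left out. Library depth is unknown.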

Other observations

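Members were unevenly spread over the chromosomes. Per Mb of allowed gene body, chromosome 10 had the highest density, 1.88 (1.42 to 2.45, 55 members), followed by chromosome 11 with 1.82 (1.32 to 2.44) and chromosome 19 with 1.80 (1.15 to 2.67). Chromosomes 13 and 6 had the lowest, 0.623 (0.341 to 1.05) and 0.635 (0.398 to 0.961). As a share of the chromosome's own peaks, members were most frequent on chromosome 12 (11.3%) and least on chromosome 13 (4.93%). The differences were not tested.

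The nearest other peak of any class was a median of 87974 bp away, and 17 of 554 members had one within 1000 bp. A compact group stood in Immp2l, a mitochondrial protease subunit gene, where 3 members of 250, 400 and 328 bp lay within 3.85 kb, with GC contents of 37.7 to 39.3%, below the lower quartile of 45% over all members. Immp2l was singled out after its values were seen.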
